A study of Mus musculus with 4 samples.

Results

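The histone-modifying enzymes described here are 60 protein-coding genes of the 53715 genes in the deposited tables. They were chosen by symbol: the Kdm, Kmt, Setd, Hdac, Sirt and Kat families with a number after the stem, plus Setdb1, Setdb2, Ezh1 and Ezh2, and without the Y-linked Kdm5d. By family they were split into 21 writers and 35 erasers. The writers were 14 histone methyltransferases and 7 histone acetyltransferases, and the erasers 17 demethylases, 11 classical deacetylases and 7 sirtuins. The remaining 4, Setd3, Setd4, Setd5 and Setd6, have a SET domain but no or disputed activity on histones and were counted apart. Other members were not sorted by how firmly their own activity on histones is known. Setd8 is the older symbol, used in the tables, of Kmt5a.

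The libraries came from CD4+CD8+ double-positive thymocytes, the main T cell precursors of the thymus, sorted from C57BL/6 mice aged 6 to 8 weeks. The KO group was LCKCre/+ Srsf1fl/fl, in which a Cre recombinase under an Lck promoter, active in early thymocytes, acts on a floxed Srsf1 gene on both chromosomes. The other mice were labelled WT, and the labels give no Cre or floxed allele for them, so effects of Cre itself cannot be told apart from the loss of Srsf1. Each group held 2 libraries of total RNA. Srsf1 encodes an SR protein that acts in splice site choice.

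Writers add methyl or acetyl groups to lysines of histone tails, and erasers take them off. Acetylation and methylation of H3 lysine 4 mark active promoters and enhancers, while methylation of H3 lysines 9 and 27 goes with silencing. In thymocytes these enzymes work with lineage transcription factors while the CD4 and CD8 genes, the antigen receptor loci and the genes of later stages are switched on or off. Many of them act within large complexes, so that a family often holds near copies with different partners.

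The libraries held 37033180 and 36389555 counts in KO cells and 35862730 and 36515358 counts in WT cells. Srsf1 had 1839 and 1772 counts in KO libraries against 4821 and 4485 in WT libraries, so reads of the floxed gene were lower but not absent. Levels below are RPKM, counts scaled by gene length and library total, which allows levels of different genes to be set side by side. Changes are log2 fold changes, KO over WT, with a standard error (SE) from the edgeR quasi-likelihood test, and a gene was called at a Benjamini-Hochberg adjusted p under 0.05 over all 16588 genes tested. The labels do not say that replicates came from separate animals. The p-values therefore rest on how far these libraries differ from each other, which may be technical variation. In sorted bulk cells, fewer cells of a kind and less RNA per cell cannot be told apart. Of the double-positive markers, Cd4 stood at 342 and 344 RPKM in KO libraries and 312 and 300 RPKM in WT libraries. Markers of other cell types were low but not all absent. The 5 thymic epithelial markers summed to 5.6 and 4.44 RPKM in KO and 5.33 and 6.2 RPKM in WT, nearly all from Epcam, with Krt5 and Foxn1 at 0 in every library. The 7 myeloid and dendritic markers summed to 15.1 and 8.4 RPKM in KO and 13.9 and 10.2 RPKM in WT, most of it from Cd68. Of 2 natural killer markers, Ncr1 was at 0, and Klrb1c had 20 and 2 counts in KO and 0 in both WT libraries. The B cell marker Ms4a1 did not exceed 0.106 RPKM, while Cd79b, another B cell gene, had 10.9 and 12.3 RPKM in KO against 7.19 and 5.32 RPKM in WT libraries. Of 8 double-positive markers, 5 rose and 0 fell by edgeR (8 passed an unadjusted p of 0.05). Over all 16588 genes tested, 4542 passed that unadjusted p and 2408 were called. Of genes that mark mature single-positive T cells, Ccr7 had 5.24 and 5.92 RPKM in KO against 19.8 and 22.2 RPKM in WT libraries, S1pr1 had 1.69 and 1.59 RPKM in KO against 4.56 and 6.12 RPKM in WT, and Klf2 had 11.8 and 15.2 RPKM in KO against 22.9 and 30.2 RPKM in WT. All 3 fell at adjusted p under 0.05 (edgeR). Of 16 proliferation genes, 11 rose and 0 fell at adjusted p under 0.05 (edgeR; 12 passed an unadjusted p of 0.05). With KO replicate 1 left out 8 rose, and by limma on log2 RPKM 4 rose, while DESeq2 and limma called 0 lower. Their summed level was 654 and 547 RPKM in KO against 446 and 492 RPKM in WT. The part of these shifts in the values below was not tested.

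To show regulatory sequence beside the values, a stretch of promoter is given for the members of 2 pairs of related genes that are compared below, from 150 to 30 bases before the start site (RefSeq, GRCm38.p6). Capitals mark CCAAT or its reverse complement ATTGG, and GGGCGG (the GC box) or its reverse complement CCGCCC. The stretches lie at chr4:136602753-136602873 (minus strand) for Kdm1a, chr13:47043349-47043469 (plus strand) for Kdm1b, chr6:47595060-47595180 (minus strand) for Ezh2 and chr11:101226493-101226613 (minus strand) for Ezh1. That of Ezh2 lies inside the gene as annotated by GENCODE (chr6:47530139-47595341), which starts farther upstream, but in none of its exons. The other stretches lie outside their genes.
Kdm1a: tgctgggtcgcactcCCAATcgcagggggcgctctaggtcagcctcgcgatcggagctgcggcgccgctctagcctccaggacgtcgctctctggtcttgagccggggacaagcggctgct
Kdm1b: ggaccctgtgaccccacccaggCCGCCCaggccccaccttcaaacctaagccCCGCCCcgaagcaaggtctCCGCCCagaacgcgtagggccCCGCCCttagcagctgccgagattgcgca
Ezh2: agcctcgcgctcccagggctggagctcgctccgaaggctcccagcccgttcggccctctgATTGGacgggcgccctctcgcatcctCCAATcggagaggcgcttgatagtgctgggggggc
Ezh1: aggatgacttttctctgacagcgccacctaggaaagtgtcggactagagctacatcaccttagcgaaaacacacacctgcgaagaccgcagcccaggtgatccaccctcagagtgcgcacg

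The stretch of Kdm1a held 1 CCAAT match and no GC box, that of Kdm1b 4 GC boxes and no CCAAT, that of Ezh2 2 CCAAT matches and no GC box, and that of Ezh1 neither. The wider window of 250 bases before the first listed start was scanned for 48 members. On either strand CCAAT occurred in 23 of them (47.9%), against 34.5% of 27025 promoters, and GGGCGG in 26 (54.2%), against 32.9%. By call, GGGCGG was found in 4 of the 8 scanned members that rose in KO and in 7 of the 7 that fell, and CCAAT in 4 of 8 and 1 of 7. Of the 32 scanned members not called, 15 held GGGCGG and 17 held CCAAT. Kdm4d, too low to test, was also scanned and belongs to none of these groups. The ETS core CCGGAAG was found in 8 of 48 (16.7%, against 7.05% of promoters): 3 of 8 that rose, 0 of 7 that fell and 4 of 32 not called. The E-box CACGTG was found in 3 of 48 (6.25%, against 6.05%). The E2F core (GCGGGAA or GCGCGAA, either strand), which occurs in 5.02% of promoters, was found in 1 of the 48 windows, that of Sirt4, and TGACGTCA, the CRE, which occurs in 1.62% of promoters, in 0 of 48. These matches describe the letters in this window only, and the promoters set beside them were not matched to the members for level or base content.

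Members of each class of writers and erasers changed by modest amounts, in both directions except among the acetyltransferases, where calls were only lower. Of 59 tested members, 10 rose and 9 fell in KO cells, where 14.5% of all tested genes were called (6.63% higher and 7.89% lower). Most members were well expressed. Of the 54 with a mean of at least 10 CPM (counts scaled to the library total), 10 rose and 9 fell, against 25.3% of all genes at that level (11.9% higher and 13.3% lower). Fold changes among tested members ranged from -0.60 for Hdac5 to 0.65 for Ezh2 on the log2 scale, and the median was 0.06, against 0.00 over all genes tested. The KO libraries lay above both WT libraries for 24 members and below both for 21, with overlap for 14. Of all tested genes, 27.8% lay above and 28.1% below, together 55.9% without overlap. At a mean of at least 10 CPM, 3003 of 8427 genes lay above, 2660 below and 2764 overlapped. For the 54 members at that level the counts were 23, 20 and 11. Kdm4d, with 0 to 4 counts in each library, was the 1 member that was too low to test. By limma on log2 RPKM, the 10 called members other than Ezh2, Kdm1a, Kdm1b, Kdm5a, Kdm5c, Hdac1, Hdac5, Hdac7 and Sirt7 were not called, which left 6 higher and 3 lower.

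**Figure D1:**
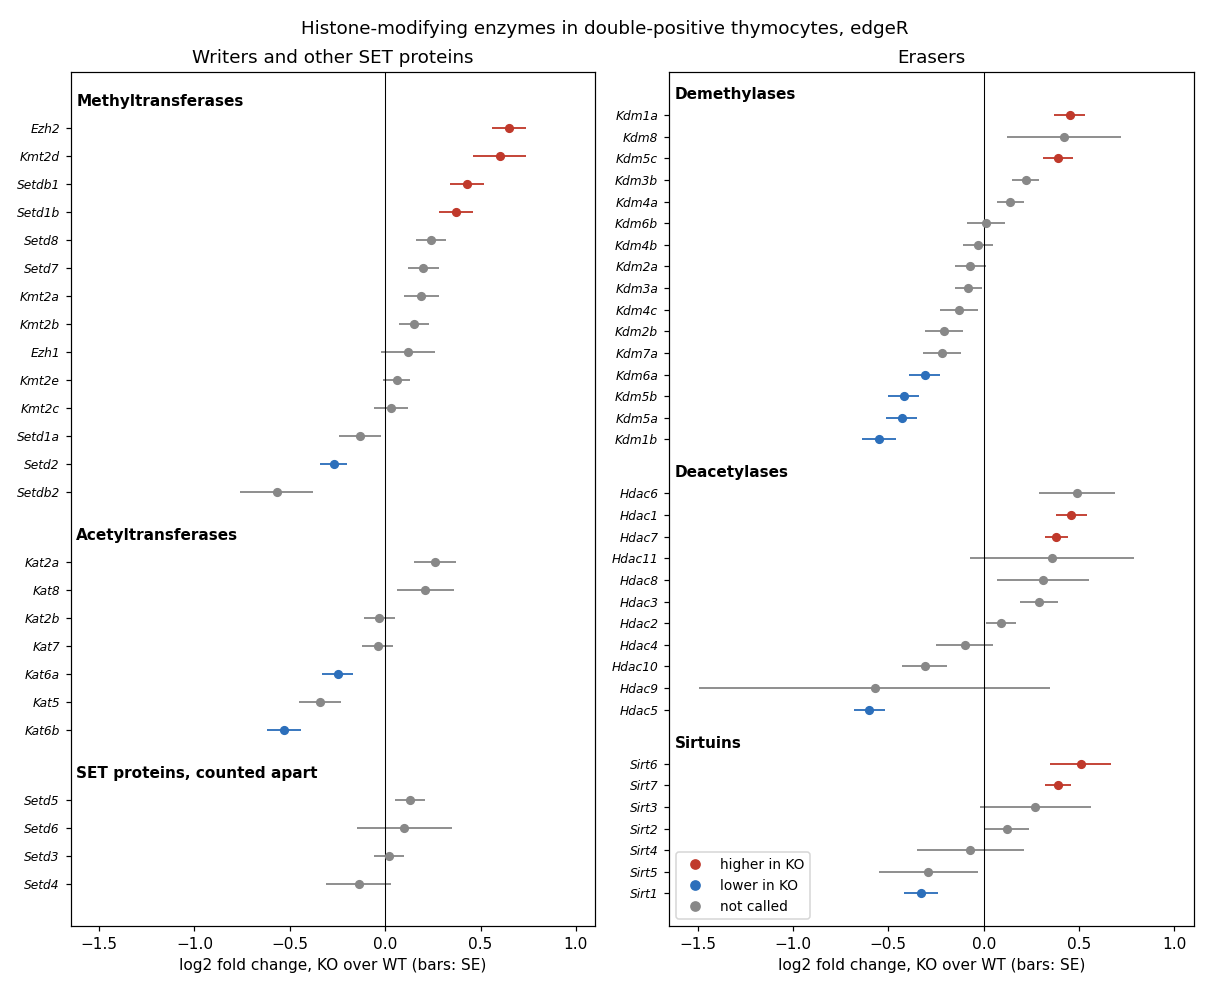
Log2 fold change, KO over WT, of the 59 tested members by class, with SE bars from edgeR; red points were called higher in KO, blue points lower, grey points not called. Calls in both directions are seen among methyltransferases, demethylases, deacetylases and sirtuins, with 4 methyltransferases higher and 4 demethylases lower in KO.

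Both writers and erasers were called in both directions. Of 21 tested writers, 4 rose, 3 fell and 14 were not called, with a median of 0.12 log2 units. Of 34 tested erasers, 6 rose, 6 fell and 22 were not called, with a median of -0.01. Without WT replicate 2, 1 writer fell. Summed over all writers, the level was 496 and 525 RPKM in KO libraries against 470 and 472 RPKM in WT libraries. Summed over all erasers it was 943 and 957 RPKM in KO against 862 and 855 RPKM in WT. Both sums were thus higher in KO. RPKM do not share a common sum. Over all genes tested they added to 275238 and 268138 in KO and 261677 and 269675 in WT. The methyltransferases summed to 348 and 375 RPKM in KO against 310 and 310 RPKM in WT. The acetyltransferases went the other way, at 147 and 150 RPKM in KO against 159 and 162 RPKM in WT. The writer sum over the eraser sum was 0.526 and 0.549 in KO against 0.545 and 0.552 in WT, ranges that overlap. Hdac7 alone gave much of the eraser sum: without it that sum was 653 and 661 RPKM in KO against 631 and 636 RPKM in WT. The ratio without Hdac7 was 0.759 and 0.795 in KO against 0.744 and 0.743 in WT.

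Among the methyltransferases, 4 of 14 rose and 1 fell. Ezh2, the catalytic subunit of Polycomb repressive complex 2 (PRC2), which methylates H3 lysine 27, had 38.0 and 31.6 RPKM in KO libraries against 22.9 and 21.6 RPKM in WT libraries. Both KO libraries lay above both WT libraries, and the change was 0.65 (SE 0.09, adjusted p = 0.000637 by edgeR), kept under all 15 alternatives. Its higher KO library was KO replicate 1, where the summed level of the 16 proliferation genes was also highest, at 654 RPKM. That sum was 547 RPKM in KO replicate 2. In WT the order was opposite, as Ezh2 was higher in replicate 1 and the sum in replicate 2 (446 and 492 RPKM in replicates 1 and 2). Of the proliferation genes, Mki67 had 61.8 and 50.9 RPKM in KO against 37.2 and 36.2 RPKM in WT. The relation between these was not tested. An antisense gene, Gm26625, shares exon sequence with Ezh2 and had 16 and 4 counts in KO and 16 and 14 in WT.

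Ezh1, the alternative catalytic subunit that prevails in resting cells, had 6.57 and 6.32 RPKM in KO libraries against 5.16 and 6.68 RPKM in WT libraries. The groups overlapped, and the change was not called (0.12, SE 0.14, adjusted p = 0.652). Within a library, Ezh2 stood 5.78 and 5.01 times as high as Ezh1 in KO and 4.43 and 3.23 times as high in WT.

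The 2 writers of H3 lysine 4 that rose were Kmt2d, which methylates enhancers, and Setd1b, the catalytic subunit of a COMPASS complex. Kmt2d had 48.1 and 66.6 RPKM in KO libraries against 37.9 and 38.0 RPKM in WT libraries. Its KO libraries lay apart from each other by more than KO replicate 1 lay from WT, and the change was 0.60 (SE 0.14, adjusted p = 0.0255). DESeq2 did not make this call (adjusted p = 0.0579), and it was lost when WT replicate 2 was left out (0.0803), with a filter at 1 CPM (0.108) and by limma on RPKM values (0.0869 with a pseudocount of 0.5), in a range of 2.1e-12 to 0.108 over all alternatives. Leaving out KO replicate 2 gave a log2 change of 0.34 for Kmt2d, and leaving out KO replicate 1 gave 0.83, so 1 library moved it by over 1.5 times.

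Setd1b had 30.6 and 35.8 RPKM in KO against 26.7 and 24.7 RPKM in WT libraries, with KO above WT in all libraries (0.37, SE 0.09, adjusted p = 0.0141). Of the other enzymes summed for this mark below, Kmt2a (0.19), Kmt2b (0.15), Kmt2c (0.03) and Setd1a (-0.13) did not pass the test. Kmt2b was the second most abundant methyltransferase, at 43.4 and 47.4 RPKM in KO against 42.0 and 39.9 RPKM in WT.

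Setdb1, which lays down H3 lysine 9 trimethylation and silences retroelements, had 19.8 and 17.8 RPKM in KO against 14.1 and 13.9 RPKM in WT libraries. It rose by 0.43 (SE 0.09, adjusted p = 0.00553), with KO above WT in all libraries. Its exons overlap those of Cers2 on the other strand, which had 4917 and 4153 counts in KO against 3600 and 3345 in WT, and with no strand setting given, shared reads cannot be told apart. Its relative Setdb2 had 4.43 and 3.51 RPKM in KO against 6.28 and 5.56 RPKM in WT, lower in both KO libraries without passing the test (-0.57, SE 0.19, adjusted p = 0.063).

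Setd2, the methyltransferase that trimethylates H3 lysine 36 along transcribed genes, was the writer of methyl marks that fell. It had 30.8 and 31.9 RPKM in KO against 36.8 and 39.1 RPKM in WT libraries, a small change with no overlap of the groups (-0.27, SE 0.07, adjusted p = 0.0226). It was no longer called when WT replicate 2 (adjusted p = 0.182) or KO replicate 1 (0.0631) was left out, nor with a correction for gene length (0.0593), in a range of 0.0018 to 0.182 over the alternatives. Setd8, which monomethylates H4 lysine 20, stood at 24.8 ± 1.06 RPKM in KO and 21 ± 1.03 RPKM in WT (SD, n = 2 each) and was not called (0.24, adjusted p = 0.0817). Setd7 (0.20) and Kmt2e (0.06) were not called either.

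Of 7 acetyltransferases, 0 rose and 2 fell by edgeR, while 4 passed an unadjusted p of 0.05. Kat6b (MORF), a MYST family enzyme, had 5.45 and 5 RPKM in KO against 7.16 and 7.99 RPKM in WT libraries. It fell by 0.53 on the log2 scale (SE 0.09, adjusted p = 0.00195), with no overlap. Its near relative Kat6a (MOZ), needed for blood stem cells and the most abundant acetyltransferase here, had 33.9 and 36.7 RPKM in KO against 43.1 and 41.2 RPKM in WT libraries. It fell by 0.25 (SE 0.08, adjusted p = 0.0411), and the call was lost without KO replicate 1 (0.176), WT replicate 1 (0.242) or WT replicate 2 (0.0698), with upper-quartile factors (0.055) and with a length correction (0.0987), in a range of 0.00539 to 0.242.

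Of the other acetyltransferases, Kat5 (Tip60) stood at 22.1 and 23.2 RPKM in KO against 27.6 and 29.8 RPKM in WT (-0.34, adjusted p = 0.0654), and Kat2a (Gcn5) had a change of 0.26 (adjusted p = 0.131). Kat2b (Pcaf), at 28.8 and 29.9 RPKM in KO against 30.1 and 30 RPKM in WT, Kat7 (-0.04) and Kat8 (0.21) did not pass the test.

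**Figure D2:**
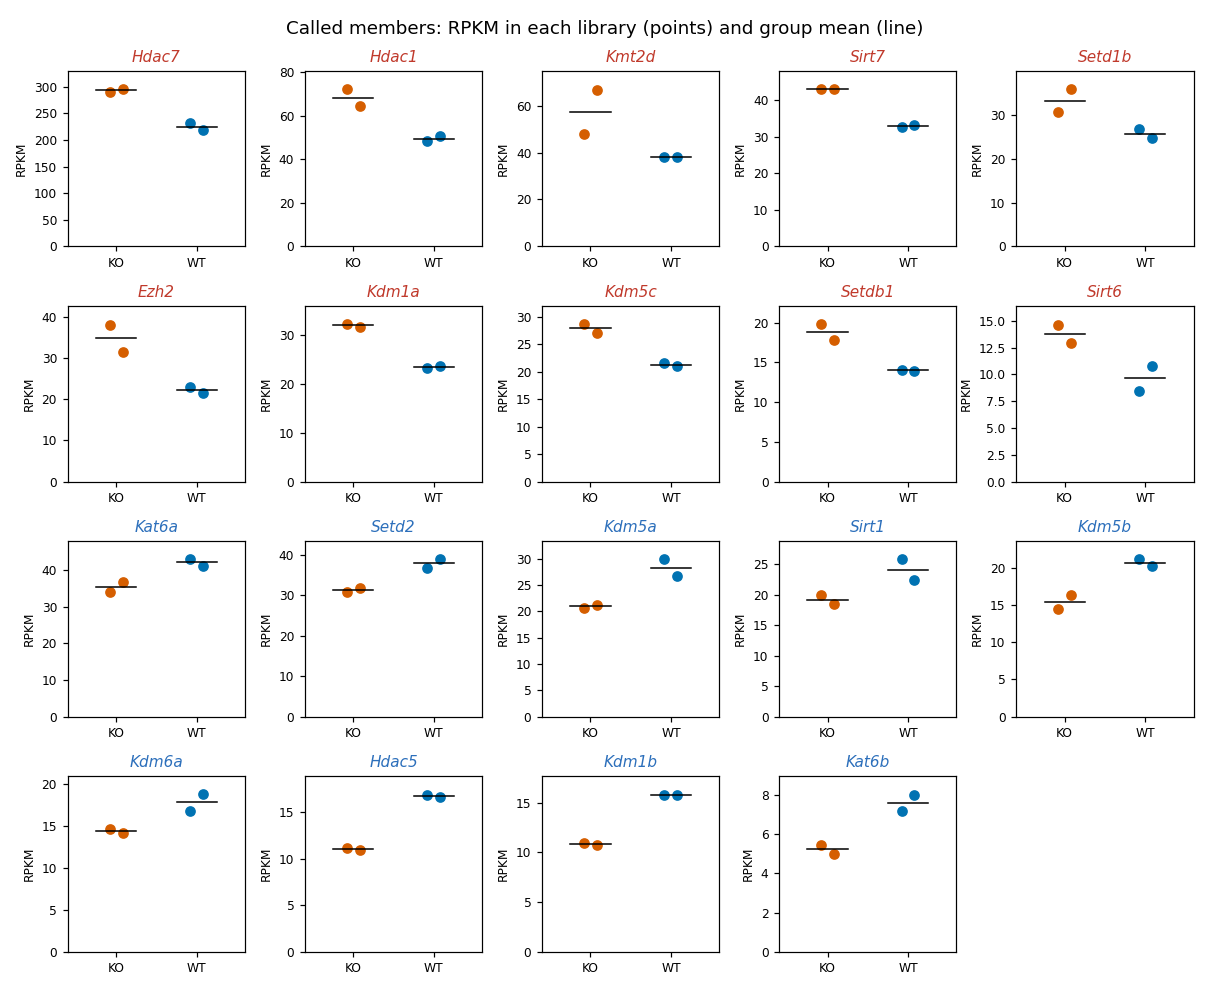
RPKM of the 19 called members in each library (points; lines are group means, axes start at 0), KO left and WT right; red titles mark genes higher in KO and blue titles genes lower in KO. The groups do not overlap in any panel, and the KO libraries of Kmt2d, at 48.1 and 66.6 RPKM, lie farther apart than those of Kdm1a, at 32.3 and 31.8 RPKM.

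Of 16 tested demethylases, 2 rose and 4 fell, and those of H3 lysine 4 split within both of their families. Kdm1a (LSD1), the flavin-dependent demethylase of the CoREST complex, had 32.3 and 31.8 RPKM in KO libraries against 23.2 and 23.8 RPKM in WT libraries. It rose by 0.45 (SE 0.08, adjusted p = 0.00231). Its relative Kdm1b (LSD2) had 10.9 and 10.7 RPKM in KO against 15.8 and 15.8 RPKM in WT libraries and fell by 0.55 (SE 0.09, adjusted p = 0.00216). Replicates lay close together for both genes, and Kdm1a stood 2.97 and 2.98 times as high as Kdm1b in KO, against 1.46 and 1.5 times in WT. Both calls were kept under all 15 alternatives. The exons of Kdm1b overlap those of Dek on the other strand, which had 8664 and 8045 counts in KO against 7121 and 7206 in WT.

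The Jumonji enzymes of the Kdm5 family, which remove methyl groups from trimethylated H3 lysine 4, parted in the same manner. Kdm5c, an X-linked gene, had 28.7 and 27.1 RPKM in KO against 21.5 and 21.1 RPKM in WT libraries and rose by 0.39 (SE 0.08, adjusted p = 0.00499). Kdm5a had 20.7 and 21.3 RPKM in KO against 29.9 and 26.8 RPKM in WT libraries and fell by 0.43 (SE 0.08, adjusted p = 0.00282). Kdm5b had 14.5 and 16.3 RPKM in KO against 21.1 and 20.2 RPKM in WT libraries and fell by 0.42 (SE 0.08, adjusted p = 0.00428). For all 3 genes the groups did not overlap. The order of Kdm5c and Kdm5a was reversed between genotypes, with Kdm5c at 1.39 and 1.27 times Kdm5a in KO and at 0.719 and 0.786 times in WT. The Kdm5a and Kdm5c calls were kept under all alternatives, and that of Kdm5b was lost only by limma on RPKM values (adjusted p = 0.0566 and 0.0571, in a range from 8.65e-06 to 0.0571).

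The demethylases of H3 lysine 27 differed in level. Kdm6a (UTX), which is X-linked, had 14.6 and 14.2 RPKM in KO against 16.8 and 18.8 RPKM in WT libraries and fell by 0.31 (SE 0.08, adjusted p = 0.0292). Leaving out WT replicate 2 ended this call (adjusted p = 0.255), as did a length correction (0.0595), in a range of 0.00993 to 0.255. Kdm6b (JMJD3), the most abundant demethylase and second of all members, had 73.4 and 94.0 RPKM in KO against 78.5 and 88.6 RPKM in WT libraries. The groups of Kdm6b overlapped and the change was 0.01 (SE 0.10, adjusted p = 0.982), with a sign that depended on the setting.

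The remaining demethylases, most of which act on H3 lysines 9 or 36, were not called. Kdm4a had 44.3 and 43.4 RPKM in KO against 39.5 and 40.0 RPKM in WT libraries (0.14, SE 0.07, adjusted p = 0.231). Kdm3b (0.22, adjusted p = 0.059), Kdm3a (-0.08), Kdm4b (-0.03), Kdm4c (-0.13), Kdm2a (-0.07) and Kdm2b (-0.21) did not pass the test, nor did Kdm7a (-0.22) and Kdm8 (0.42, SE 0.30).

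Among the classical deacetylases, 2 of 11 rose and 1 fell. Hdac7, a class IIa enzyme known for its high level in double-positive thymocytes, where it represses genes such as Nr4a1 until receptor signals drive it out of the nucleus, was the most abundant member. It had 290 and 296 RPKM in KO against 231 and 219 RPKM in WT libraries and rose by 0.38 (SE 0.06, adjusted p = 0.00116). Its class IIa relative Hdac5 had 11.2 and 11 RPKM in KO against 16.9 and 16.7 RPKM in WT libraries and fell by 0.60 (SE 0.08, adjusted p = 0.00046). The groups did not overlap for either gene, and both calls were kept under all 15 alternatives. Hdac7 stood 26.0 and 26.9 times as high as Hdac5 in KO and 13.7 and 13.1 times as high in WT. The other class IIa genes were low: Hdac4 had a mean of 2.10 RPKM over all libraries and Hdac9 0.052 RPKM, and neither was called. The exons of Hdac7 overlap those of Slc48a1 on the other strand, which had 1985 and 1811 counts in KO and 1499 and 1616 in WT, against 72525 and 72807 counts of Hdac7 in KO.

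Hdac1, a class I enzyme shared by the NuRD, Sin3 and CoREST complexes, had 72 and 64.2 RPKM in KO against 48.2 and 50.7 RPKM in WT libraries. It rose by 0.46 (SE 0.08, adjusted p = 0.0024), a call kept under all alternatives. Its partner and close relative Hdac2 had 36.1 and 33.1 RPKM in KO against 32.2 and 33.0 RPKM in WT (0.09, SE 0.08, adjusted p = 0.556). Hdac1 stood 1.99 and 1.94 times as high as Hdac2 in KO and 1.49 and 1.54 times as high in WT. Hdac3, the enzyme of NCoR complexes, stood at 20.1 ± 0.139 RPKM in KO and 16.5 ± 0.755 RPKM in WT (SD, n = 2 each; 0.29, adjusted p = 0.0658). Hdac6 (0.49), Hdac8 (0.31), Hdac10 (-0.31) and Hdac11 (0.36) were not called.

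Sirtuins, the NAD-dependent deacetylases, gave 2 higher and 1 lower call of 7. Sirt7, a nucleolar enzyme that acts on H3 lysine 18, had 43.2 and 43.2 RPKM in KO against 32.7 and 33.2 RPKM in WT libraries and rose by 0.39 (SE 0.07, adjusted p = 0.0041), under all alternatives as well. Its exons overlap Mafg on the same strand, which had 810 and 781 counts in KO against 1129 and 1148 in WT. Sirt6, which acts on H3 lysine 9 at chromatin, had 14.6 and 12.9 RPKM in KO against 8.48 and 10.8 RPKM in WT libraries (0.51, SE 0.16, adjusted p = 0.0482). The Sirt6 call was lost without KO replicate 1 (0.145), without WT replicate 1 (0.294), with library size only (0.0522) and with a length correction (0.0506), in a range of 0.00779 to 0.294.

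Sirt1, a nuclear deacetylase of histones and of factors such as p53, had 20.0 and 18.4 RPKM in KO against 25.8 and 22.4 RPKM in WT libraries and fell by 0.33 (SE 0.09, adjusted p = 0.0358). Its call was lost without WT replicate 1 (0.322), without KO replicate 2 (0.0742) and with a length correction (0.0504), in a range of 0.00725 to 0.322. Sirt7 stood 2.16 and 2.35 times as high as Sirt1 in KO and 1.27 and 1.48 times as high in WT. Sirt2 (0.12) was not called, and the mitochondrial Sirt3, Sirt4 and Sirt5, with means of 1.19, 3.14 and 1.65 RPKM over all libraries, were not called. The SET proteins counted apart were not called either: Setd3, which acts on actin, had 25.3 and 25.1 RPKM in KO against 25.4 and 24.3 RPKM in WT, and Setd5 13.2 and 14.5 RPKM in KO against 12.6 and 12.8 RPKM in WT.

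**Figure D3:**
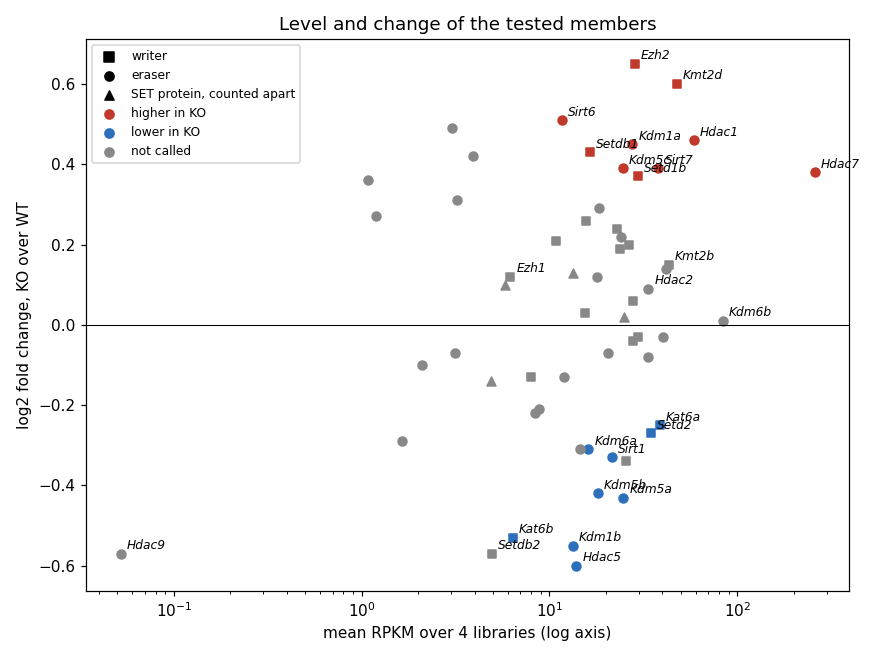
Mean RPKM over the 4 libraries (log axis) against the log2 fold change, KO over WT, of each tested member; squares are writers, circles erasers, triangles SET proteins counted apart. The called members lie between 6.40 RPKM (Kat6b) and 259 RPKM (Hdac7), and no member changed by more than 0.65 log2 units.

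Levels were also summed over members grouped by mark, and for the H3 lysine 4 demethylases opposite changes nearly offset each other. For H3 lysine 4, the 5 demethylases summed to 107 and 107 RPKM in KO against 112 and 108 RPKM in WT libraries, although all 5 were called. The methyltransferases summed for H3 lysine 4 were Kmt2a, Kmt2b, Kmt2c, Kmt2d, Setd1a and Setd1b, and Setd7 was left out. These 6 summed to 168 and 202 RPKM in KO against 152 and 149 RPKM in WT. Without Kmt2d the sums were 120 and 135 RPKM in KO against 114 and 111 RPKM in WT. Writers over erasers of that mark thus stood at 1.57 and 1.88 in KO against 1.36 and 1.39 in WT libraries, and at 1.12 and 1.26 against 1.02 and 1.03 without Kmt2d.

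For H3 lysine 27, Ezh1 and Ezh2 over Kdm6a and Kdm6b stood at 0.507 and 0.351 in KO against 0.294 and 0.263 in WT libraries. For acetylation the ratio ran the other way, with the 7 acetyltransferases over the 18 deacetylases and sirtuins at 0.266 and 0.274 in KO against 0.345 and 0.362 in WT, and at 0.557 and 0.598 against 0.691 and 0.709 without Hdac7. The 18 took in the mitochondrial Sirt3, Sirt4 and Sirt5. For H3 lysine 9, Setdb1 and Setdb2 over the Kdm3 and Kdm4 genes stood at 0.158 and 0.139 in KO against 0.136 and 0.130 in WT. Histone writers outside the symbol rule were left out of these sums, among them Suv39h1, Suv39h2, Ehmt1 and Ehmt2 and, for acetylation, Ep300 and Crebbp. Of these, only Suv39h2 was called, and it fell by 0.76 (SE 0.16, adjusted p = 0.00752 by edgeR). These genes were named after values were seen. In each of these 4 ratios the KO libraries lay on 1 side of the WT libraries, as they did for 55.9% of single genes tested. These are sums of mRNA levels over chosen genes, given as a description with no test, and they say nothing of enzyme activity or of the marks.

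**Figure D4:**
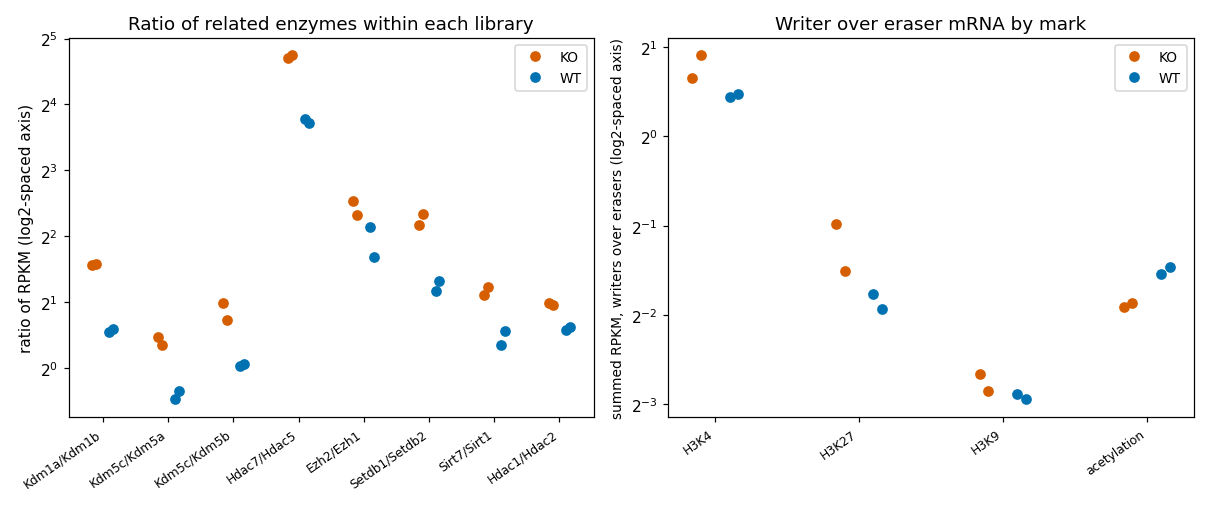
Left, RPKM ratio of related enzymes within each library; right, summed RPKM of writers over erasers for 4 marks (both on log2-spaced axes; 2 points per genotype, KO left of WT). The ratios of Kdm1a to Kdm1b, at 2.97 and 2.98 in KO against 1.46 and 1.5 in WT, and of writers to erasers of acetylation, at 0.266 and 0.274 in KO against 0.345 and 0.362 in WT, stand apart by genotype.

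The subunits that work with these enzymes were read from lists of complex partners. Of tested partners, 27.3% were called for COMPASS, 22.2% for PRC2, 28.6% for deacetylase complexes and 33.3% for acetyltransferase complexes. Of all tested genes 14.5% were called, and of those with a mean of at least 10 CPM 25.3% (11.9% higher and 13.3% lower). Of 11 tested partners of the COMPASS methyltransferases, 3 rose and 0 fell by edgeR, with 5 at an unadjusted p under 0.05. Among all genes tested 4542 of 16588 had such a p, and 3610 of 8427 with a mean of at least 10 CPM. Men1, the menin subunit of Kmt2a and Kmt2b complexes, had 34.9 and 37.9 RPKM in KO against 26.2 and 26.1 RPKM in WT libraries (0.48, SE 0.09, adjusted p = 0.00303). The scaffold Hcfc1 had 56.5 and 56.9 RPKM in KO against 45.2 and 44.4 RPKM in WT (0.34, SE 0.07, adjusted p = 0.0051). The core subunit Wdr5 rose by 0.33 (adjusted p = 0.0438), a call lost without KO replicate 1 (0.178), WT replicate 1 (0.196) or WT replicate 2 (0.0651) and by limma on log2 RPKM (0.0904 and 0.0912), in a range of 0.0131 to 0.196.

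Of 9 PRC2 partners, 1 rose and 1 fell. Both are accessory subunits that guide PRC2 to chromatin and occur in separate forms of the complex. Mtf2 had 29.1 and 31.0 RPKM in KO against 21.7 and 22.3 RPKM in WT libraries (0.45, SE 0.08, adjusted p = 0.00283). Jarid2 had 17.0 and 19.4 RPKM in KO against 26.6 and 28.5 RPKM in WT libraries and fell by 0.60 (SE 0.09, adjusted p = 0.000745). Without KO replicate 2, 4 PRC2 partners rose.

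Of 21 partners of deacetylase complexes, 5 rose and 1 fell. The 3 with the smallest adjusted p were the NuRD subunits Mta2, at 141 and 145 RPKM in KO against 109 and 107 RPKM in WT (0.40, SE 0.07, adjusted p = 0.00173), Chd3 (0.53, SE 0.09, adjusted p = 0.00183) and Mta1 (0.38, SE 0.08, adjusted p = 0.00695). The others that rose were Chd4 (0.25) and the CoREST subunit Rcor3 (0.77), and the NCoR subunit Tbl1xr1 fell by 0.30. These last 3 were named after their values were seen. The call of Chd4 (adjusted p = 0.0233) was lost without WT replicate 2 (0.201), that of Rcor3 (0.025) without KO replicate 2 (0.134) or WT replicate 1 (0.0989), and that of Tbl1xr1 (0.0301) without KO replicate 2 (0.0952), WT replicate 1 (0.051) or WT replicate 2 (0.173). With a length correction 8 of these partners rose and 0 fell, and by limma on log2 RPKM 3 rose and 0 fell, with none of Chd4, Rcor3 and Tbl1xr1 called. Adjusted p over the alternatives ran from 0.00159 to 0.201 for Chd4, from 0.00399 to 0.296 for Rcor3 and from 0.011 to 0.173 for Tbl1xr1.

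Of 27 partners of acetyltransferase complexes, 3 rose and 6 fell, or 1 and 3 by limma on log2 RPKM. Ing3, a subunit of the complex of Kat5, had 15.7 and 15.1 RPKM in KO against 24.2 and 22.4 RPKM in WT libraries and fell by 0.60 (SE 0.09, adjusted p = 0.000992). Brpf3, a scaffold of Kat6 and Kat7 complexes, had 13.9 and 15.9 RPKM in KO against 20.7 and 20.6 RPKM in WT and fell by 0.47 (SE 0.09, adjusted p = 0.00454). Limma on log2 RPKM did not call Brpf3 (adjusted p = 0.0507 and 0.051 with either pseudocount), in a range of 1.26e-05 to 0.051 over the alternatives. Kansl3, a subunit of the NSL complex of Kat8, had 38.6 and 36.4 RPKM in KO against 25.1 and 25.7 RPKM in WT and rose by 0.56 (SE 0.08, adjusted p = 0.000422).

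Enzymes of the same kind outside the symbol rule also changed in both directions. Of 29 other histone writers, 4 rose and 4 fell. That is 27.6% called, and 14.3% for the other demethylase genes below. The share was 14.5% of all tested genes and 25.3% of those at 10 CPM or more. Without KO replicate 1, 1 of them rose, and without WT replicate 1, 2 rose. By limma on log2 RPKM 1 rose and 2 fell. Prdm2 had 28.3 and 32.5 RPKM in KO against 42.6 and 41.3 RPKM in WT libraries and fell by 0.46 (SE 0.08, adjusted p = 0.00318). The coactivator Ncoa1 fell by 0.46 (SE 0.09, adjusted p = 0.00474), and the histone N-terminal acetyltransferase Naa40 rose by 0.49 (SE 0.10, adjusted p = 0.00501). The call of Ncoa1 was lost by limma on log2 RPKM (adjusted p = 0.0554 and 0.0557), in a range of 1.12e-05 to 0.0557. Of 7 other demethylase genes, 0 rose and 1 fell by edgeR, with 2 at an unadjusted p under 0.05 (all genes: 4542 of 16588). The 1 that fell was Jmjd1c, a Kdm3 relative, with 15.8 and 15.4 RPKM in KO against 23.3 and 22.9 RPKM in WT libraries (-0.57, SE 0.07, adjusted p = 0.00024).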

How the data were processed

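RNA was sequenced from 2 KO and 2 WT libraries, grouped by title. The authors deposited raw counts per gene for each library and an RPKM table with gene lengths. Each RPKM value equals the count over gene length and library total within a relative tolerance of 1e-06. Per the submitters' processing notes the tools were FastQC 0.11.5, cutadapt 1.17, STAR 2.6.0a, HTSeq 0.6.1 and DESeq2 1.24.0 with GRCm38 (mm10). For the strand setting and annotation release nothing is stated in the labels, notes or headers, so overlapping genes may share reads. All 60 members matched GENCODE release 21 for mouse, and exons of 24 overlap another gene.

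Counts were tested two-sided with edgeR 4.0.16 (quasi-likelihood, robust, TMM, filterByExpr, genotype only) in R 4.3.3. The fits were also run on counts simulated from the levels and dispersions of these 4 libraries. Such a run cannot show whether replicates were separate animals, and no result here rests on it. TMM factors lay between 0.993 and 1.01. SE came from the fold change and F statistic. An exact permutation test of 2 against 2 cannot go below p = 0.333 and was not used. Named members were all called ones, Ezh1, Ezh2 and the 2 with the highest mean RPKM of each class; from each other list up to 3 called genes with the smallest adjusted p. Members and lists were chosen with earlier results of these data known. The background at 10 CPM, related pairs, sums by mark, motifs and printed promoters were chosen after values were seen. Alternatives used edgeR settings, DESeq2 1.42.0, limma 3.58.1 (voom, and log2 of the deposited RPKM plus 0.5 or 0.1 for genes with a mean of at least 1), a replicate block, a length correction and leaving out each library. Chi-square of counts per degree of freedom was 19.0 for the KO pair and 16.7 for the WT pair, so no library was a repeat. Some marker genes of the lists are not reported here, so the mature T cell and B cell lists are given in part and without their sums.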

Additional observations from a re-analysis of the deposited data

How the results depend on the processing

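Of 19 called members, 9 kept their call under all 15 alternatives (Ezh2, Kdm1a, Kdm1b, Kdm5a, Kdm5c, Hdac1, Hdac5, Hdac7 and Sirt7), as did Srsf1. The 10 higher and 9 lower member calls became 6 and 3 by limma on log2 RPKM with either pseudocount, where 1 writer rose, 0 writers fell and 3 erasers fell. With a filter at 1 CPM 5 writers fell. Leaving out 1 library gave 9 to 12 members higher, 6 to 9 lower, 3 to 6 writers higher, 1 to 3 writers lower, 5 to 6 erasers higher and 5 to 6 erasers lower. With a length correction 13 members rose and 6 fell, 6 and 2 of them writers and 7 and 4 erasers. The median change of writers was 0.17 with a length correction and 0.08 to 0.16 without 1 library, and that of erasers 0.02 and -0.03 to 0.02. The cause was not tested. Signs turned for members near 0 that were not called: without 1 library Ezh1 ran from -0.04 to 0.32, Kat2b from -0.06 to 0.01, Setd3 from -0.01 to 0.07 and Kdm6b from -0.19 to 0.19. The sign of Kdm6b also turned by limma-voom and on RPKM values (-0.01), with the 1 CPM filter (-0.00034) and with the replicate block (-0.0033). With the replicate number as a block, 10 members rose and 10 fell, 4 and 4 of them writers and 6 and 6 erasers. The labels do not say that numbers pair libraries, and the correlation of KO and WT deviations was -0.0392 over genes. With 2 libraries a group, changes of the size seen here rest on few degrees of freedom.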
